A study of Mus musculus with 74 samples.

Results

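Germline genes that serve meiosis and the piRNA pathway were examined for H3K9me3, a heterochromatin mark made by adding 3 methyl groups to lysine 9 of histone H3, at their promoters and along their bodies. The set holds 36 autosomal genes listed by their role, of 20807 autosomal protein-coding genes in the GENCODE annotation of mm10. The list was drawn up with earlier results of these data known. By role there are 6 regulators of germ cells, 11 genes of the piRNA pathway, 7 of the synaptonemal complex, 3 of meiotic cohesin, 5 of meiotic recombination and 4 other genes known for expression in testis. A promoter is the 2 kb centred on the annotated 5′ end, 1 kb to each side. It was called marked, by the rule in the study's methods, when at least 50% of the 2 kb lay in 1 peak or at least 50% of a peak lay in the 2 kb.

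The peaks came from ultra-low-input native ChIP-seq, in which chromatin is cut with micrococcal nuclease and precipitated without crosslinking, and were called over input. One pooled peak list was analysed for each of 10 stages: cumulus cells (CC), which were the nuclear donors, embryos from somatic cell nuclear transfer (SCNT), taken 6 and 14 h post activation (hpa), with 2, 4 or 8 cells (2C, 4C and 8C) and as morulae, both parts of SCNT blastocysts, namely trophectoderm (TE) and inner cell mass (ICM), and zygotes from fertilization at pronuclear stage 5 (PN5). CC and recipient oocytes were from B6D2F1 females, and reconstructed oocytes were activated with strontium chloride in the presence of cytochalasin B, which all SCNT groups share. Fertilized zygotes came from a C57BL/6 cross and, by the study's methods, from an earlier publication, so that strain, embryo type and study cannot be told apart in any comparison with PN5.

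The labels list 41 precipitated and 33 input libraries, between 2 and 7 precipitated libraries for each list. Replicates were merged before peaks were called, so that every value below is a single value without a replicate error, no test was possible, and a single deviant library cannot be seen. Reads had been drawn to equal numbers per list by the authors, and the autosomal peaks covered between 123 Mb (2C) and 212 Mb (CC). A promoter without a peak may still carry the mark below the peak caller's threshold. The lists hold no expression, so the labelled cell types could not be checked against marker genes.

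Germ cells express these genes to pair and recombine their chromosomes and to make piRNAs, the small RNAs that guide Piwi proteins to silence transposons. In somatic tissues most of these genes are silent, and many of them have promoters rich in CpG dinucleotides that are held off by DNA methylation and by repressor complexes, among them a Polycomb complex that contains E2F6, MGA and MAX. H3K9me3 set by SETDB1 has been described at a number of such promoters in embryonic stem cells. Most CpG-rich promoters, in contrast, belong to genes active in many tissues and usually carry no H3K9me3.

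By this rule the 36 germline promoters were marked more often than promoters at large in all 10 lists. Relative to the background the excess was largest in both lineages of the blastocyst. In PN5 and at 8C it rested on few promoters, with 5 and 4 of the 36 marked. The further 34 germline genes described below were not above the background at 8C, with 2.94% marked against 6.79%. In ICM 15 of the 36 promoters were marked against 4.00% of all autosomal promoters, and in TE 17 of 36 against 4.13%, shares that were 10.4 and 11.4 times the background. In CC 11 of 36 were marked against 7.84%, 3.90 times the background. At 6 hpa, when promoters were marked widely over the genome, 22 of 36 were marked against 29.9%, which was 2.04 times the background although the count was the largest of any list.

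From 14 hpa to morulae fewer germline promoters were marked than at 6 hpa, in ICM or in TE. The ratio to the background was 3.56 at 14 hpa, 3.48 at 2C and 3.65 at 4C. These ratios cannot be ranked against the 2.04 at 6 hpa. There the background of 29.9% would hold the ratio below all 3 even with every member marked. At 14 hpa 11 of 36 were marked against 8.59% of all promoters, at 2C 8 against 6.39%, and at 4C 8 against 6.09%. The lowest count was at 8C, with 4 of 36 against 6.79%, followed by morulae, with 5 against 5.11%. In fertilized PN5 zygotes 5 of 36 were marked against 9.25%, the lowest ratio to the background of the 10 lists.

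Of the 36 promoters 18 are CpG-rich (50%, against 49.9% of all promoters), and these were set against all 10385 autosomal promoters of that class. High-CpG means a window of 500 bases with an observed-to-expected CpG ratio of at least 0.75 and a GC content of at least 55%. Of the 18 high-CpG germline promoters, 9 were marked in ICM against 1.57% of the class and 11 in TE against 2.00%. In CC 8 were marked against 4.12%, and at 6 hpa 13 against 41.1%. The counts were 6 at 14 hpa and 6 at 2C, against 6.48% and 4.63%, then 4 at 4C against 1.69%. At 8C and in morulae 2 were marked, against 1.04% and 0.713%, and in PN5 2 against 7.78%. High-CpG germline promoters were thus above their class in every list, and at 6 hpa the class itself was marked at a rate that no other list approached. Intermediate promoters were 13 of the 36 (36.1%, against 18.4% of all promoters) and low-CpG promoters 5 (13.9%, against 31.7%). Of the 13 intermediate members 5 were marked in ICM and 5 in TE, where 4.75% and 4.83% of all intermediate promoters were. Of the 5 low-CpG members 1 was marked in each, where 7.39% and 7.07% of all low-CpG promoters were.

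**Figure D1:**
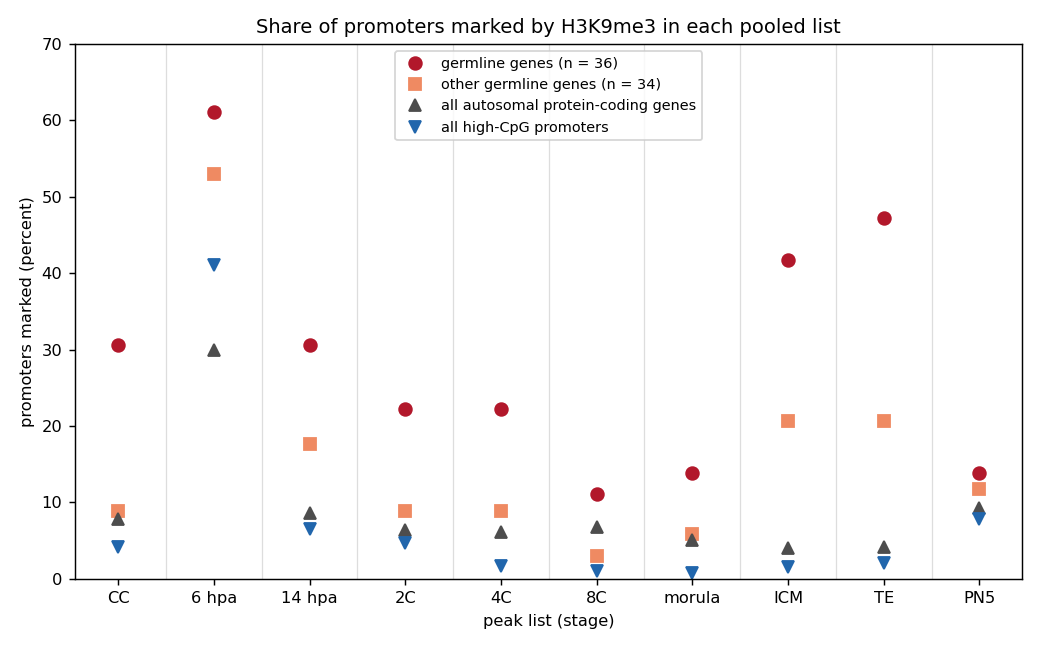
Percent of promoters marked by H3K9me3 (y axis) in each of the 10 pooled peak lists (x axis) for the 36 germline genes, 34 further germline genes, all 20807 autosomal protein-coding genes and the 10385 high-CpG promoters, with 1 point per set and list and no error because replicates were pooled. The 36 genes lie above both backgrounds in every list, at 41.7% in ICM and 47.2% in TE, where all genes are at 4.00% and 4.13%.

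A further 34 germline genes, listed by role in the same pathways, served as a second set, also drawn up with earlier results of these data known. They were marked in 3 promoters in CC, 18 at 6 hpa, 6 at 14 hpa, 3 at 2C and 3 at 4C, 1 at 8C, 2 in morulae, 7 in ICM, 7 in TE and 4 in PN5. Their share was 20.6% in ICM and in TE, between that of the 36 genes and the background, and 8.82% in CC, close to the 7.84% of all promoters. At 6 and 14 hpa it was 52.9% and 17.6%, against 29.9% and 8.59%. At 2C and at 4C it was 8.82%, against 6.39% and 6.09%. The share at 8C was 2.94%, below the 6.79% of all promoters. In morulae it was 5.88% against 5.11%, and in PN5 11.8% against 9.25%. Of these 34, 4 were marked in at least 5 lists: Fkbp6 (a cochaperone of the piRNA pathway) in 8, Tex12 (central element of the synaptonemal complex) in 6, and Tdrkh (Tudor and KH domain protein) and Henmt1 (the methyltransferase of piRNA 3′ ends) in 5. Tex12 was covered over 30.6% of its promoter in CC, 49.0% in ICM and 45.0% in TE, with nothing from 4C to morulae. Tdrkh had 59.3% in CC, 82.1% in ICM and 81.4% in TE, and also nothing from 14 hpa to morulae. Henmt1 was fully covered at 14 hpa and 2C and had a minor share in ICM, where it was not marked.

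Of the 36 germline promoters, 25 were marked in at least 1 list (69.4%, against 44.2% of all promoters) and 22 in at least 3 lists (61.1%, against 9.45%). None was marked in all 10 lists. Ddx4 and Sycp2 were marked in 8, Mael and Tuba3a in 7, and Mei1, Sycp1 and Mov10l1 in 6. The 300 bases around the annotated 5′ end, 250 before it and 50 after it, are printed for 6 of these 7 promoters, taken in order of the number of lists and then of mean coverage, and for 2 high-CpG promoters without a peak in any list, Msh4 and Msh5. Sequences were read from GRCm38.p6, 5′ to 3′ on the strand of the gene. Capitals mark TCCCGC or its reverse complement GCGGGA, the core of the E2F6 motif, and CACGTG, the E-box that MAX dimers bind and that reads the same on both strands.
Sycp2, chr2:178407636-178407935, minus strand: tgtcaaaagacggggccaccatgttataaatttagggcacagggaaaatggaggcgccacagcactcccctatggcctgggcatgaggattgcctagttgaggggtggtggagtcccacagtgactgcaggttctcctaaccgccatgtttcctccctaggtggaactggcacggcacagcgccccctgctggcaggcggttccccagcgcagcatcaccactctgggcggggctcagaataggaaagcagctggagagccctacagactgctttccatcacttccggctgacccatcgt
Ddx4, chr13:112652426-112652725, minus strand: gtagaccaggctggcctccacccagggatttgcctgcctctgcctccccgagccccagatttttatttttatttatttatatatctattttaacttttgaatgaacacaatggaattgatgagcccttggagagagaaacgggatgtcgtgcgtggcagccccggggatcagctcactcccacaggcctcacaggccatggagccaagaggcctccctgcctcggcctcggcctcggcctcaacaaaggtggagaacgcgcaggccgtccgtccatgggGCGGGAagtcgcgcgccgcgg
Tuba3a, chr6:125285993-125286292, minus strand: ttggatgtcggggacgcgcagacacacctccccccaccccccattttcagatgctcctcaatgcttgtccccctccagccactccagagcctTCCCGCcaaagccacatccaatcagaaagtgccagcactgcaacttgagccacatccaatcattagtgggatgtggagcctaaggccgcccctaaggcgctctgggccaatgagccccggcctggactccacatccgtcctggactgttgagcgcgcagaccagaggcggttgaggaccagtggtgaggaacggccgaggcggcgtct
Mael, chr1:166238698-166238997, minus strand: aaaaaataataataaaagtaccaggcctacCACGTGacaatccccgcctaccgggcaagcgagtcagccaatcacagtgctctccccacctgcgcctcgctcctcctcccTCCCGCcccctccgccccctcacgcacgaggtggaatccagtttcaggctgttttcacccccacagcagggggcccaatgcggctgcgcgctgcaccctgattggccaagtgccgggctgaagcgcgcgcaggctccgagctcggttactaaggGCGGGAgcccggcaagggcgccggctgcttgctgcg
Mei1, chr15:82069746-82070045, plus strand: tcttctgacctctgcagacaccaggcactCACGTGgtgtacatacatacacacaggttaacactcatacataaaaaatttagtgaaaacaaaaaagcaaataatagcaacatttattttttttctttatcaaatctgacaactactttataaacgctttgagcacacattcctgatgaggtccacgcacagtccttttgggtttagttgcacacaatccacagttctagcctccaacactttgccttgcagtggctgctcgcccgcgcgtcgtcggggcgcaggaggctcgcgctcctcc
Mov10l1, chr15:88982659-88982958, plus strand: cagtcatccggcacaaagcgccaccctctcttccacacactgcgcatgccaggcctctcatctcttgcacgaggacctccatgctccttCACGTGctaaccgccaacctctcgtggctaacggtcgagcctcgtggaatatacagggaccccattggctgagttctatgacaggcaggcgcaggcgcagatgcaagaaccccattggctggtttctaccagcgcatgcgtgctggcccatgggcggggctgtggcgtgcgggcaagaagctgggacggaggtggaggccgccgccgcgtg
Msh4, chr3:153906089-153906388, minus strand: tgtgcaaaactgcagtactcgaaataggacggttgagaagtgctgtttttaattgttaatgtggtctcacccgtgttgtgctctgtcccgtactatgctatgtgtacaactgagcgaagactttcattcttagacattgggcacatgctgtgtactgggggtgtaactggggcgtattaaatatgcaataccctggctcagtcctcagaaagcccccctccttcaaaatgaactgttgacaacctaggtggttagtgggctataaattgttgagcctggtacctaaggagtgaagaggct
Msh5, chr17:35046696-35046995, minus strand: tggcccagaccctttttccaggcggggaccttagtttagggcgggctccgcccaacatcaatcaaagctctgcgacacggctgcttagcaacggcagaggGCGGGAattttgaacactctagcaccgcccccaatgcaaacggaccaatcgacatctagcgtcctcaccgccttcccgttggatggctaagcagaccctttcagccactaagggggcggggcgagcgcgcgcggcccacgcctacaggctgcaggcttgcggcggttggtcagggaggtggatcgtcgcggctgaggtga

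Among these windows, Mael held 24 CpG dinucleotides with 1 E-box and 2 E2F6 cores, Mov10l1 held 22 with 1 E-box, and Mei1 held 12 with 1 E-box. Ddx4 held 18 with 1 E2F6 core just inside the gene, Tuba3a 15 with 1 core, and Sycp2 10 with neither motif. Msh5, which had no peak, held 25 CpG dinucleotides and 1 E2F6 core, and Msh4 held 6 and neither motif. CpG-dense windows and E2F6 cores were therefore found in promoters with and without peaks. The annotated starts of Mei1 and Msh4 lie 12480 and 1247 bases from the nearest RefSeq start, so these 2 windows are those of the GENCODE 5′ end.

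Of these 2 motifs, the E-box was the more frequent relative to both backgrounds. In the same 300 bases CACGTG was found in 11 of the 36 germline promoters (30.6%), in 7.82% of all autosomal promoters and in 10.8% of high-CpG promoters. Of the 11 members with an E-box there, 10 were marked in ICM or TE, and of the 25 without, 8 were. Over all high-CpG promoters the difference was small, with 3.48% of those holding CACGTG and 2.47% of those without it marked in ICM or TE. The E2F6 core was found in 14 of the 36 windows (38.9%), in 24.5% of all and in 40.0% of high-CpG promoters. Of these 14, 9 were marked in ICM or TE, and of the other 22, 9 were. Over all high-CpG promoters the order was the reverse, with 2.36% of those holding the core and 2.73% of those without it marked. Over the full 2 kb CACGTG was present in 20 of 36 (55.6%), against 27.9% of all and 34.1% of high-CpG promoters. TCCCGC was also present in 20 of 36, against 56.4% of all and 83.9% of high-CpG promoters. Both strands were searched, matches of the 2 motifs can share no more than 1 base, and a match describes the sequence, not a bound factor.

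**Figure D2:**
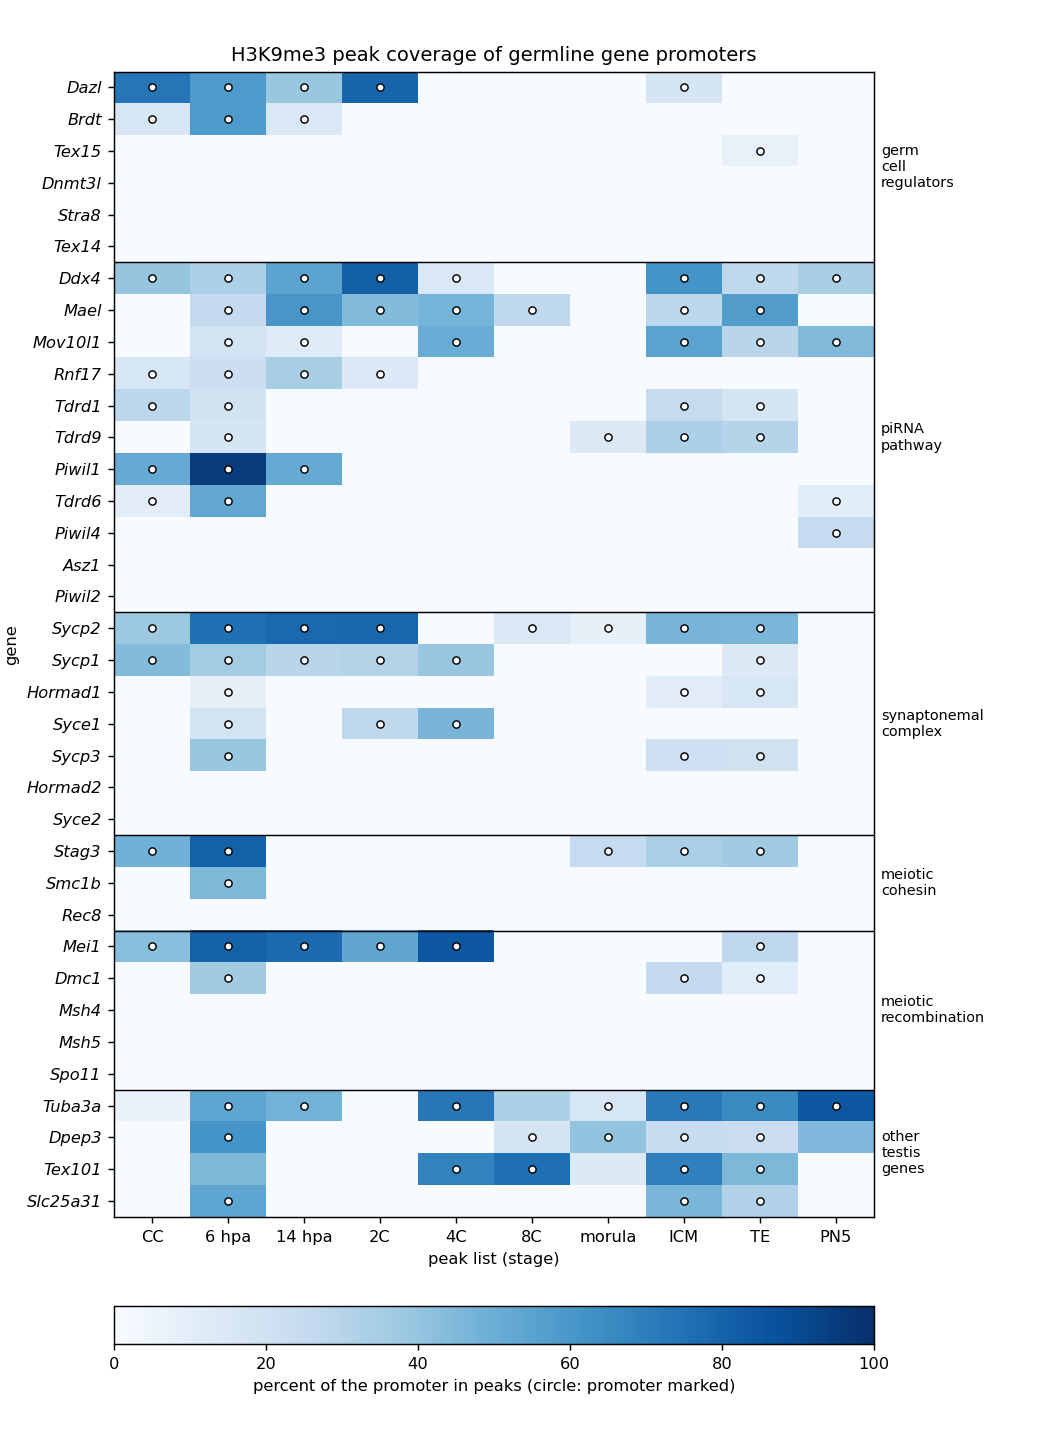
Percent of each 2-kb promoter in H3K9me3 peaks (colour) for the 36 germline genes (y axis, grouped by role and ordered by the number of lists in which they were marked) in the 10 pooled lists (x axis), with a circle where the promoter was marked. Coverage is found mostly from CC to 4C and again in ICM and TE, and 8 of the 10 lists have fewer than 16 marked genes.

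Among the regulators of germ cells, Dazl, an RNA-binding protein that controls translation in germ cells, had the most coverage. Its promoter was in peaks over 72.8% in CC, 58.8% at 6 hpa, 39.0% at 14 hpa, 79.7% at 2C and 17.0% in ICM, and over 0% at 4C, at 8C, in morulae, in TE and in PN5. The 4 lists from donor cells to 2C were therefore followed by 3 without a peak and by a narrow peak of 339 bases in ICM only. The CC peak had a fold enrichment of 4.24 over input and the ICM peak of 2.35, where the median over the peaks on all marked promoters was 2.77 and 2.88. Brdt, the testis bromodomain protein, had coverage in 3 lists, 16.2% in CC, 58.9% at 6 hpa and 14.4% at 14 hpa, against 0% in the other 7. Tex15, which acts in spermatocytes, was marked in 1 list only, with 7.60% in TE from a peak of 152 bases. Stra8 (entry into meiosis), Dnmt3l (cofactor of de novo DNA methylation) and Tex14 (intercellular bridges, in a window shared with the 5′ end of Rad51c) had 0% in all 10 lists. Of 3 further RefSeq starts of Dnmt3l, the one 13388 bases downstream was marked at 6 hpa, with 11.1%, and the others had 0% throughout. The annotated 5′ end of Stra8 lies 785 bases upstream of its RefSeq start, and around the RefSeq start 8.65% was covered at 6 hpa, 28.9% in ICM and 15.7% in TE, with a marked promoter at 6 hpa and in ICM.

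In the piRNA pathway 9 of 11 promoters were marked in at least 1 list, as 44.2% of all promoters were. Ddx4, the Vasa RNA helicase of germ cells, had 39.7% in CC, 33.0% at 6 hpa, 54.4% at 14 hpa, 81.4% at 2C, 14.2% at 4C, 0% at 8C and in morulae, 61.4% in ICM, 27.0% in TE and 34.1% in PN5. The gap at 8C and in morulae separated an early from a blastocyst phase. In TE its peak had a fold of 3.65 and a −log10 q of 7.33, and in PN5 a fold of 2.72 and a −log10 q of 1.53, near the lowest value of that list. Mael, which is needed for transposon silencing in germ cells, had 0% in CC, then 25.1% at 6 hpa, 60.5% at 14 hpa, 44.1% at 2C, 47.5% at 4C and 26.3% at 8C, 0% in morulae, 28.1% in ICM, 57.1% in TE and 0% in PN5. Unlike Ddx4 it had no peak in donor cells and a peak at each cleavage stage up to 8C. Mov10l1, the helicase that starts piRNA processing, had 0% in CC, 18.4% at 6 hpa, 12.1% at 14 hpa, 0% at 2C, 50.7% at 4C, 0% at 8C and in morulae, 55.1% in ICM, 29.1% in TE and 44.6% in PN5.

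The Tudor domain proteins, which assemble piRNA complexes, showed different patterns. Tdrd1 had 27.8% in CC and 19.2% at 6 hpa, 0% from 14 hpa to morulae, 24.6% in ICM, 17.5% in TE and 0% in PN5. Tdrd9 had 0% in CC, 16.5% at 6 hpa, 0% from 14 hpa to 8C, 13.3% in morulae, 33.1% in ICM, 30.3% in TE and 0% in PN5. Both were thus covered at 6 hpa and in both blastocyst lineages, with Tdrd9 already covered in morulae. Rnf17 (also named Tdrd4) had 15.8% in CC, 21.7% at 6 hpa, 34.2% at 14 hpa, 13.5% at 2C and 0% in the other 6 lists. Tdrd6 had 10.3% in CC, 53.0% at 6 hpa and 10.6% in PN5, and 0% in the other 7 lists. Rnf17 and Tdrd6 were therefore not marked in the blastocyst.

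Of the Piwi proteins, which bind piRNAs, Piwil1 was the most covered. Around its annotated 5′ end 51.6% was in peaks in CC, 95% at 6 hpa and 51.6% at 14 hpa, with 0% in the other 7 lists. In CC and at 6 hpa the peak was much wider than the promoter, 12073 and 12865 bases, and was centred upstream of it. The RefSeq start of Piwil1 lies 33722 bases downstream, and its 2 kb had 0% in CC, 77.1% at 6 hpa, 10% at 14 hpa, 56.6% at 2C and 10.3% in TE. Piwil4 was marked in PN5 only, with 24.7%, and it was the only member marked in PN5 and in no SCNT list or in CC. Piwil2 and Asz1, which tethers germ granules to mitochondria, had 0% in every list.

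In the synaptonemal complex, the scaffold that holds paired homologues together, 5 of 7 promoters were marked in at least 1 list, against the same 44.2% of all promoters. Sycp2, of the lateral element, had 37.8% in CC, 75.0% at 6 hpa, 78.5% at 14 hpa, 78.9% at 2C, 0% at 4C, 14.8% at 8C, 8.45% in morulae, 46.5% in ICM, 46.2% in TE and 0% in PN5. Its peak was of nearly the same width in the 3 lists from 6 hpa to 2C, 1500, 1569 and 1578 bases, and narrower in the blastocyst, 930 bases in ICM and 924 bases in TE. Sycp1, the transverse filament, had 44.0% in CC, 35.9% at 6 hpa, 29.1% at 14 hpa, 30.8% at 2C and 38.8% at 4C, 0% at 8C, in morulae and in ICM, 13.1% in TE and 0% in PN5. The TE peak of Sycp1 lay upstream of the 5′ end and did not overlap the CC or the 6 hpa peak. Sycp3, also of the lateral element, had 38.8% at 6 hpa, 21.3% in ICM and 19.8% in TE and 0% in the other 7 lists. Hormad1, an axis protein that marks unpaired chromosomes, had 8.20% at 6 hpa, 11.3% in ICM and 16.1% in TE and 0% elsewhere. These 2 promoters thus had a peak in the same 3 lists. Syce1, of the central element, had 18.6% at 6 hpa, 27.0% at 2C and 46.6% at 4C, 0% in the other 7 lists, and a −log10 q below 2 in each of these peaks. Syce2 and Hormad2 had 0% in all lists, Syce2 also along its whole body.

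Of the meiotic cohesin subunits, which hold sister chromatids together, Stag3 had 48.6% in CC, 80.9% at 6 hpa, 0% from 14 hpa to 8C, 24.9% in morulae, 33.8% in ICM, 36.7% in TE and 0% in PN5. Its CC peak had the highest fold of any peak on a germline promoter, 5.43, with a −log10 q of 13.0. The window also holds the 5′ ends of Gpc2 and Gm43720, so that the peak cannot be given to Stag3 alone. Smc1b was marked at 6 hpa only, with 45.6%, and shares its window with the 5′ end of Ribc2. Rec8 had 0% over its promoter and body in all 10 lists.

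In meiotic recombination, Mei1, needed for the DNA breaks that start it, had 42.9% in CC, 81.2% at 6 hpa, 77.2% at 14 hpa, 53.5% at 2C, 84.5% at 4C, 0% at 8C, in morulae and in ICM, 27.1% in TE and 0% in PN5. Those values are for the GENCODE 5′ end. Around the RefSeq start, 25.7% was covered at 8C and 12.1% in PN5, and 0% in the other 8 lists. Dmc1, the meiotic recombinase, had 36% at 6 hpa, 25.5% in ICM and 10.6% in TE, and 0% in the other 7 lists. Its 6 hpa peak was centred 190 bases into the gene and its ICM and TE peaks 758 and 962 bases, and the TE peak did not overlap the 6 hpa peak. Msh4 and Msh5, which stabilise crossovers, and Spo11, the enzyme that makes the breaks, had 0% in all lists. For Spo11 the annotated 5′ end is not the start of every transcript, and around another GENCODE start 2142 bases downstream 18.2% was covered in CC, 19.2% at 6 hpa, 11.7% at 4C, 22.4% in ICM and 20.9% in TE, with 0% in the other 5 lists.

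The 4 other testis genes were each marked in both ICM and TE, as 2.38% of all promoters were. Slc25a31, a testis ADP/ATP carrier, had 53.8% at 6 hpa, 45.8% in ICM and 31.7% in TE, and 0% in the other 7 lists. Dpep3, a membrane dipeptidase of male germ cells, had 61.6% at 6 hpa, 17.7% at 8C, 40.3% in morulae, 23.7% in ICM, 23.0% in TE and 45.2% in PN5, where the promoter just missed the rule, and 0% in the other 4 lists. Tex101, a surface protein of male germ cells, had 45.7% at 6 hpa (not marked), 68.4% at 4C, 75.1% at 8C, 12.9% in morulae (not marked), 68.8% in ICM and 45.7% in TE, and 0% in CC, at 14 hpa, at 2C and in PN5. Tex101 was the only one of the 36 whose highest promoter coverage was at 8C. Tuba3a, a testis α-tubulin, had 7% in CC, 53.8% at 6 hpa, 47.7% at 14 hpa, 0% at 2C, 72.3% at 4C, 32.5% at 8C, 16.4% in morulae, 71.6% in ICM, 65.1% in TE and 84.9% in PN5, and was marked in 7 of these lists, not in CC or at 8C. Tuba3a has a near-identical copy, Tuba3b, and how reads shared by the copies were placed is not given in the sources used here.

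From donor cells to the zygote, all 11 promoters marked in CC were also marked at 6 hpa (Dazl, Brdt, Ddx4, Tdrd1, Tdrd6, Piwil1, Rnf17, Sycp1, Sycp2, Stag3 and Mei1), where 57.4% of all promoters marked in CC were. In each of the 11 the CC and the 6 hpa peaks overlapped, as they did in 92.0% of the 937 promoters of any kind marked in both. The other 11 promoters marked at 6 hpa were not marked in CC (Mael, Tdrd9, Mov10l1, Sycp3, Syce1, Hormad1, Smc1b, Dmc1, Slc25a31, Dpep3 and Tuba3a). Promoters marked in both lists, which may be called inherited, were 30.6% of the germline genes and 4.50% of all genes, and those marked only at 6 hpa, de novo, were 30.6% and 25.4%. The inherited share was therefore above the background, and the de novo share, taken over all genes of each set, near it. Only promoters unmarked in CC could be marked de novo, however. Of those, 44% of the germline promoters were marked at 6 hpa, against 27.6% of all promoters and 40.0% of high-CpG promoters. Counted in this way, de novo marking was above that of all promoters and close to that of the high-CpG class.

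From 6 to 14 hpa, 11 of 22 promoters kept a peak, against 19.2% of all promoters marked at 6 hpa. None of the members unmarked at 6 hpa was marked at 14 hpa. Of all promoters unmarked at 6 hpa only 4.07% were, so that few would be looked for among so small a number. Of the 11 marked at 14 hpa 7 were marked at 2C (Dazl, Ddx4, Mael, Rnf17, Sycp1, Sycp2 and Mei1), against 38.6% of all promoters marked at 14 hpa. Marked in CC, at 6 and 14 hpa and at 2C were Dazl, Ddx4, Rnf17, Sycp1, Sycp2 and Mei1, 6 of 36 (16.7%) against 1.71% of all promoters. Sycp1 and Mei1 were also marked at 4C, as was Ddx4, and none of the 3 at 8C. In PN5 only Ddx4 of these 6 was marked.

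From morulae to the blastocyst, all 5 promoters marked in morulae (Tdrd9, Sycp2, Stag3, Dpep3 and Tuba3a) were marked in both ICM and TE. Of all promoters marked in morulae, 43.2% were marked in ICM and 41.5% in TE, each lineage taken alone. Of the high-CpG promoters marked in morulae, 71.6% and 68.9% were. A further 13 were marked in ICM or TE and not in morulae, 36.1% against 2.94% of all promoters and 1.99% of high-CpG promoters. They were Dazl, Tex15, Ddx4, Mael, Tdrd1, Mov10l1, Sycp1, Sycp3, Hormad1, Dmc1, Mei1, Tex101 and Slc25a31. In total 18 of the 36 were marked in ICM or TE, against 5.75% of all promoters, and 14 of them in both, against 2.38%. In all 14 the ICM and TE peaks overlapped, as they did in 93.9% of the 495 promoters of any kind marked in both. Dazl was the only promoter marked in ICM and not in TE, and Tex15, Sycp1 and Mei1 those marked in TE and not in ICM. Each of these 4 had no peak at all in the other lineage.

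Many of the promoters marked in the blastocyst had also been marked at 6 hpa. Of the 15 in ICM 14 were marked at 6 hpa (93.3%, against 53.2% of all promoters marked in ICM), with Tex101 the exception. Of the 17 in TE 15 were (88.2% against 51.7%), with Tex15 and Tex101 the exceptions. The 6 hpa and ICM peaks overlapped in all 14, as in 90.1% of the 443 promoters of any kind marked in both. The 6 hpa and TE peaks overlapped in 13 of the 15, not in Sycp1 and Dmc1. Over the 444 promoters of any kind marked in both, the share was 86.3%. A group of 6, Dazl, Tdrd1, Sycp3, Hormad1, Dmc1 and Slc25a31, was marked at 6 hpa and in ICM or TE and in none of the lists from 4C to morulae, 16.7% against 0.692% of all promoters. Relative to donor cells, 5 of the 11 promoters marked in CC were marked in ICM and 6 in TE, against 23.2% and 22.7% of all promoters marked in CC. Brdt, Tdrd6, Piwil1 and Rnf17 were marked in CC and in neither lineage, although the RefSeq start of Piwil1 was marked in TE.

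In fertilized PN5 zygotes the 5 marked promoters were Ddx4, Tdrd6, Piwil4, Mov10l1 and Tuba3a. Of the 11 promoters marked in SCNT embryos at 14 hpa, 3 were marked in PN5 (27.3%, against 32.9% of all promoters marked at 14 hpa), namely Ddx4, Mov10l1 and Tuba3a. The 8 marked at 14 hpa and not in PN5 were Dazl, Brdt, Mael, Piwil1, Rnf17, Sycp1, Sycp2 and Mei1, all with 0% in PN5.

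In position, most of the peaks were centred near the 5′ end, except at 8C. The median width of the peaks on marked germline promoters lay between 498 bases in morulae and 1277 bases at 4C, where the median over the peaks on all marked promoters was 547 to 975 bases. From 6 hpa to 4C the germline peaks were the wider, with medians of 847.5, 954, 1229.5 and 1277 bases against 548, 744, 584 and 877 on all marked promoters. In ICM and TE the medians were close, 662 and 541 bases against 644.5 and 547, and in CC, at 8C, in morulae and in PN5 the germline peaks were the narrower. Their median fold lay between 2.66 and 3.10, close to that on all marked promoters (2.62 to 3.03). Peaks were centred within 500 bases of the 5′ end in 8 of the 11 marked promoters in CC, 18 of 22 at 6 hpa, 12 of 15 in ICM and 14 of 17 in TE, but in 1 of 4 at 8C. No share over all marked promoters is set beside these counts. For a peak narrower than 2 kb the marking rule already requires a centre within 1 kb of the 5′ end. Averaged over the 36 genes in bins of 250 bases, coverage within 500 bases of the 5′ end was 24.6% in ICM and 23.2% in TE, against 1.76% and 2.31% more than 2.5 kb away. Over all high-CpG promoters the same bases near the 5′ end had 0.670% and 0.818%, less than the 2.60% and 2.70% farther out. At 6 hpa the germline genes had 40.6% near the 5′ end and 5.05% farther out, and the high-CpG promoters 18.1% and 3.74%. At 8C the order was turned round for the germline genes, with 3.26% near the 5′ end and 5.56% farther out. Morulae had 3.53% and 2.18%.

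**Figure D3:**
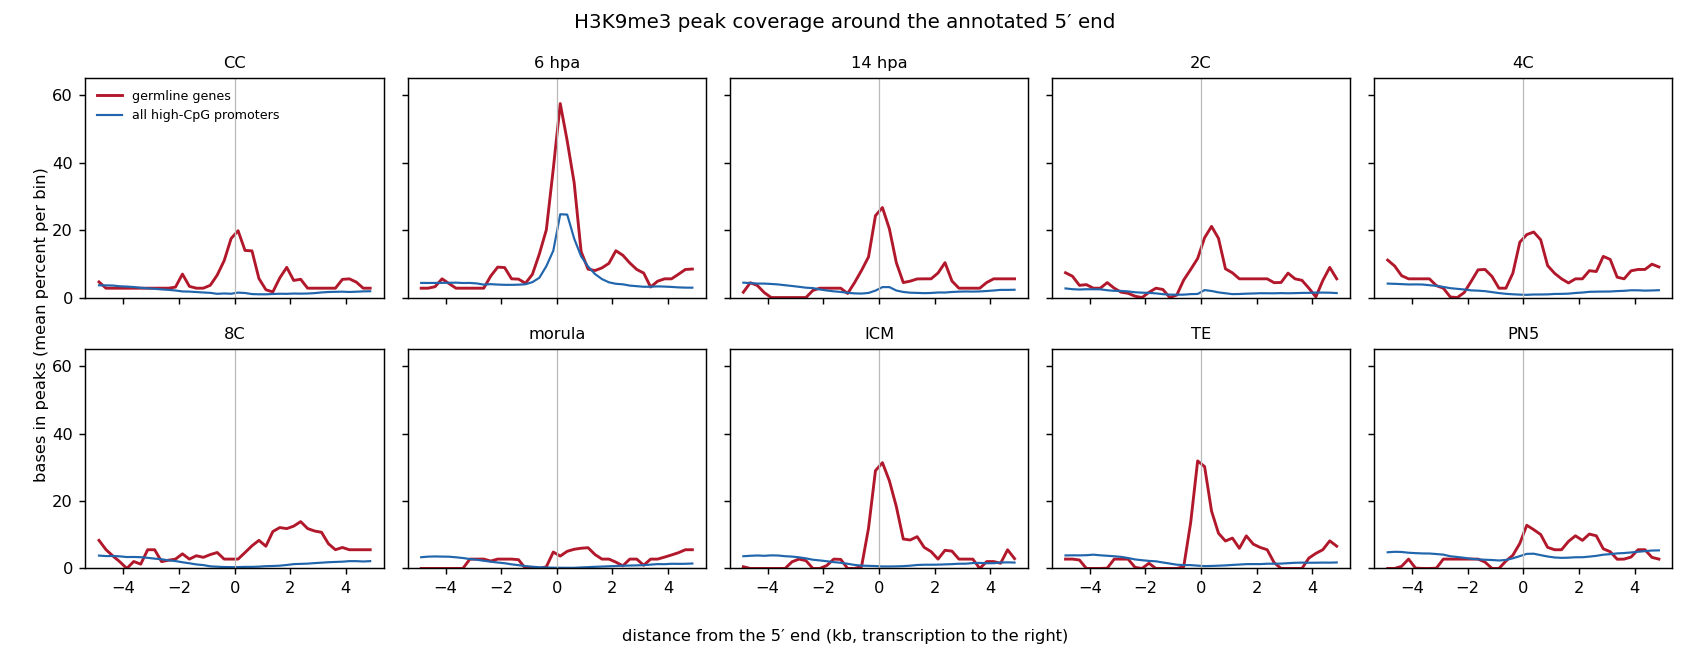
Mean percent of bases in H3K9me3 peaks in bins of 250 bases (y axis) against the distance from the annotated 5′ end in kb, with transcription to the right (x axis), for the 36 germline genes and for all high-CpG promoters, in 10 panels, 1 for each pooled list. The germline curve peaks at the 5′ end at 57.5% at 6 hpa, 31.4% in ICM and 31.9% in TE, has no maximum there at 8C and stays at or below 6.16% in morulae, while the high-CpG curve has a tall maximum there at 6 hpa only.

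Gene bodies held little H3K9me3. The median over the 36 genes lay between 0.646% of the gene at 4C and 2.70% in PN5, where the median over all genes was 0% in 8 lists, 1.17% at 6 hpa and 1.18% in PN5. By the mean, the 36 genes were below all genes in CC (4.00% against 5.88%) and in morulae (4.15% against 4.24%). In PN5 the means were close (6.40% and 6.33%), and in the other lists that of the 36 genes was the higher. The 5 genes with the highest values in any list were Tex101, Piwil1, Tuba3a, Tdrd6 and Dpep3. Piwil1 had 51.9% of its body in peaks in CC, 53.7% at 6 hpa, 58.4% at 14 hpa, 40.0% at 2C, 31.9% at 4C, 25.5% at 8C, 19.3% in morulae, 12.7% in ICM, 10.2% in TE and 12.0% in PN5. From 14 hpa on, each later SCNT stage was lower than the one before, and TE was the lowest of all 10 lists. Tex101 had 2.68% in CC, 40.1% at 6 hpa, 18.2% at 14 hpa, 51.2% at 2C, 76.2% at 4C, 52.4% at 8C, 29.1% in morulae, 57.7% in ICM, 44.9% in TE and 19.9% in PN5. Its body was therefore covered in every embryo list and barely in donor cells. Around the RefSeq start of Tex101, 4625 bases into the annotated gene, coverage ranged from 0% in CC and at 14 hpa to 100% at 4C, and this window was marked in 8 lists.

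Tdrd6 had 1.37% of its body in peaks in CC, 24.5% at 6 hpa, 3.15% at 14 hpa, 25.3% at 2C, 33.8% at 4C, 43.1% at 8C, 10.8% in morulae, 1.38% in ICM, 5.26% in TE and 8.53% in PN5. The cleavage-stage coverage of Tdrd6 lay inside the gene, since its promoter had 0% in those lists. Tuba3a had 4.49% in CC, 34.2% at 6 hpa, 20.8% at 14 hpa, 5.47% at 2C, 29.5% at 4C, 17.0% at 8C, 6.49% in morulae, 20.1% in ICM, 27.2% in TE and 45.7% in PN5. Dpep3 had 12.2% at 6 hpa, 6.62% at 8C, 11.4% in morulae, 3.14% in ICM and 31.3% in PN5, and 0% in the other 5 lists. Tuba3a and Dpep3 had their highest body coverage in fertilized zygotes. Tdrd9 and Mov10l1 had moderate coverage in all 10 lists, between 12.9% and 22.7% and between 11.8% and 27.3%.

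**Figure D4:**
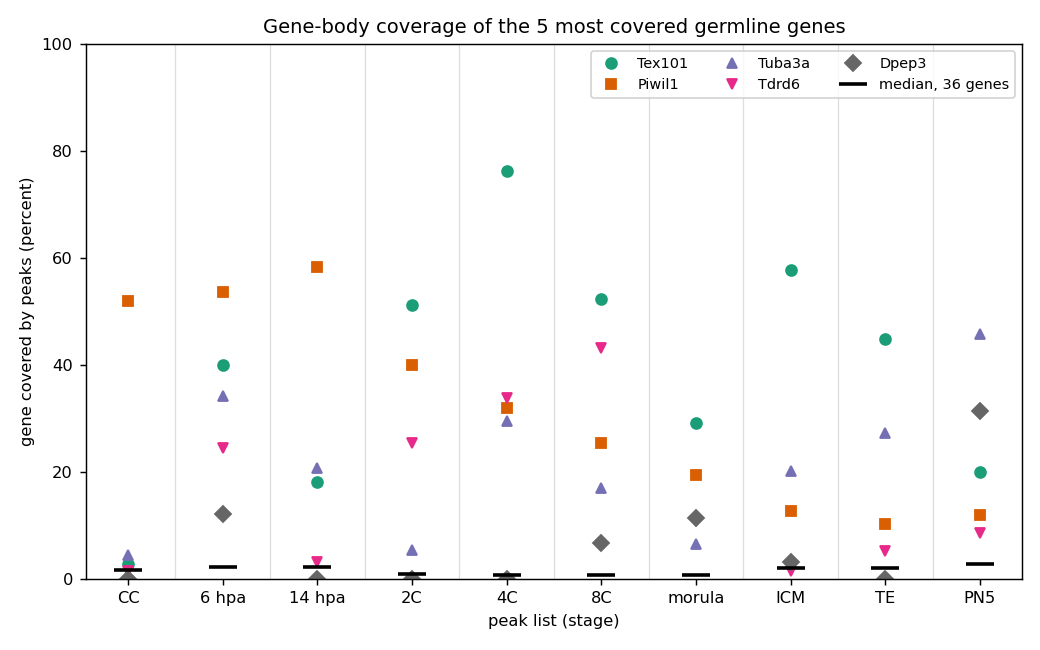
Percent of the annotated gene in H3K9me3 peaks (y axis) in each of the 10 pooled lists (x axis) for the 5 germline genes with the highest value in any list, with the median over the 36 genes as a black bar. Piwil1 is highest in CC and at 6 and 14 hpa, Tex101 is highest at 4C at 76.2%, and the median stays at or below 2.70%.

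The counts depend on narrow peaks that lie within a promoter. When peaks had to cover at least 50% of the 2 kb, 4 of 36 were marked in ICM and 2 in TE, against 1.14% and 1.04% of all promoters, and 10 at 6 hpa against 7.18%. At 2C 4 were marked against 1.94%, so that by this rule 2C stood higher relative to its background than TE. With only peaks of −log10 q of at least 2, the counts were 13 in ICM, 16 in TE, 9 in CC and 18 at 6 hpa, against 3.20%, 3.16%, 6.25% and 19.0% of all promoters. In the lists with few marked members the order against the background could turn: under the 50% rule 0 of 36 were marked in morulae (1.66% of all promoters) and 1 in PN5 (3.65%), and with 500 bases to each side 1 was marked at 8C (4.93%).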

How the data were processed

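H3K9me3 was profiled by ULI-NChIP-seq in CC, SCNT embryos and PN5 zygotes, in 74 libraries that the labels place in 20 groups. The authors trimmed reads with Cutadapt (1.16 in the submitters' processing notes), aligned them to mm10 with BWA, merged the replicates of a stage, removed duplicates and brought all lists to equal read numbers with SAMtools and Picard, and called broad peaks over input with MACS2, whose version and threshold are not given in the sources used here. Each deposited peak carries a fold enrichment, a ratio over input computed by the authors' peak caller. The deposited −log10 q value is that of the peak caller, and its lowest value in a list was between 1.30 and 1.52. The number of reads behind a peak is not known from the lists, and what is called also varies with the background of the libraries.

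Peaks on the 19 autosomes were merged where they touched. Coverage was computed in bases over promoters (1000 bases to each side of the 5′ end of protein-coding genes in GENCODE M21) and over annotated genes, with Python 3.11.15 and numpy 2.4.6. CpG class, motifs and the printed sequences were read from GRCm38.p6, the same build. A promoter was low-CpG when no window of 500 bases, moved in steps of 10, passed an observed-to-expected ratio of 0.48, and intermediate when neither high nor low. The coverage code was tested on simulated peaks. RefSeq starts were found for 31 of the 36 members.

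The members, the 34 further germline genes and the measures were chosen with earlier results of these data known. Every member is accounted for: members marked in at least 3 lists and the 5 with the highest gene-body coverage are given in all 10 lists, those marked in 1 or 2 lists are named with that list, and further germline genes are named when marked in at least 5 lists. Alternatives were the marking rule, the peak threshold, lists trimmed to equal length, the promoter width, the choice of 5′ end, members alone in their window and gene bodies without the 5′ end. RefSeq starts, the count in ICM or TE and not in morulae, the count over the 4 lists from CC to 2C and the number of lists per member were added after seeing the data. No test was run, since each stage gave 1 pooled list.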

Additional observations from a re-analysis of the deposited data

How the results depend on the processing

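No paired analysis was possible because each stage has a single peak list made from merged replicates, which also means that no replicate could be left out. The rule for a marked promoter mattered most. When peaks had to cover at least 50% of the promoter, the counts of 36 were 2 in CC, 10 at 6 hpa, 5 at 14 hpa, 4 at 2C and 4 at 4C, 1 at 8C, 0 in morulae, 4 in ICM, 2 in TE and 1 in PN5, with 2 inherited at 6 hpa, 5 marked in ICM or TE and not in morulae, and 0 marked in all 4 lists from CC to 2C. By this rule 3.75% of all promoters were marked in CC, 7.18% at 6 hpa, 3.31% at 14 hpa, 1.94% at 2C and 2.55% at 4C. The shares were 2.29% at 8C, 1.66% in morulae, 1.14% in ICM, 1.04% in TE and 3.65% in PN5. The germline share was then 5.56% in CC and 2.78% at 8C. With only peaks of −log10 q of at least 2, the counts that moved by over 1.5 times were 3 at 4C, 2 at 8C, 3 in morulae and 2 in PN5. Of all promoters 3.99%, 3.59%, 3.60% and 4.55% were marked in these lists. With every list trimmed to the length of the shortest, the counts that moved were 7 in CC, 3 at 14 hpa, 3 at 4C, 2 at 8C, 2 in morulae, 7 inherited and 2 over the 4 early lists, while ICM had 10 and TE 15. The shares of all promoters were then 3.38% in CC, 3.03% at 14 hpa, 3.99% at 4C, 4.10% at 8C, 2.41% in morulae, 2.27% in ICM and 2.89% in TE. With 500 bases to each side, 1 was marked at 8C and 3 in morulae, against 4.93% and 3.61% of all promoters. Any base in a peak, any annotated or any RefSeq start, and members alone in their window moved none of these counts by over 1.5 times. Without the 1 kb next to the 5′ end, the median gene-body coverage was 0.651% in CC, 0.531% at 6 hpa, 0.226% at 2C, 0.397% at 8C, 0% in morulae, 0.350% in ICM and 0.274% in TE. Of the 36 members, the number of lists in which a promoter was marked moved by over 1.5 times in 21 under the 50% rule, in 6 with trimmed lists, in 5 with the stricter peaks, in 6 with any annotated start, in 4 with any RefSeq start and in 3 with the narrower promoter.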

Other observations

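In the second set of germline genes, the 7 promoters marked in ICM were the same 7 marked in TE, namely Fkbp6, Tex12, Tdrkh, Gtsf1, Nanos3, Spata22 and Terb2. The last 4 of these were chosen for mention after their values were seen. Spata22, a recombination factor of spermatocytes, had 30.7% of its promoter in peaks at 6 hpa, 27.1% at 14 hpa, 43.5% in ICM and 25.7% in TE, and 0% in the other 6 lists. Terb2, which links meiotic telomeres to the nuclear envelope, had 7.40% at 6 hpa, 12.1% in ICM and 15.2% in TE, and Nanos3, a regulator of primordial germ cells, had 15.0%, 7.60% and 14.7% in the same lists, with 0% in the other 7. Gtsf1, a zinc-finger partner of Piwi proteins, had 10.9% at 4C, 16.9% in morulae, 27.3% in ICM and 19.2% in TE. Fkbp6 had no peak in CC and at 14 hpa and its highest value, 95.1%, in morulae, where only 5 of the 36 germline genes described above were marked.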
